A study of Mus musculus with 36 samples.

Results

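Described here are 8 genes of the circadian clock measured in the gastrocnemius muscle of mice: the REV-ERB genes Nr1d1 and Nr1d2, the DEC genes Bhlhe40 and Bhlhe41, the output activators Dbp, Tef and Hlf, and Ciart. They were chosen by gene symbol from the 46893 features of the count table, and each symbol matched 1 row. The choice of these symbols was made with earlier results of the same mice in view, including the response to running distance in which Nr1d1 and Bhlhe40 had passed adjustment. The values of the group comparisons below therefore describe these genes and are not independent evidence about them.

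In nearly every cell, the transcription factors CLOCK and BMAL1 (Arntl in the count table) switch on their own repressors at E-box sites, and the resulting feedback gives a rhythm of about a day. REV-ERB proteins repress Arntl, DEC proteins and the product of Ciart (CHRONO) repress the action of CLOCK and BMAL1, and the PAR bZIP factors DBP, TEF and HLF carry the rhythm to target genes through D-box sites. In skeletal muscle the clock is known for timing genes of fuel use, and Dbp and Nr1d1 are among its most strongly rhythmic transcripts, with Arntl in the opposite phase.

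Libraries were made from 36 male wild-type C57BL/6 mice, 6 in each of 6 groups, that entered the study at 3 to 4 weeks of age and were kept on their diets for 12 weeks. NFD-C mice were sedentary and ate the AIN93G diet, with 16% of energy from fat. All other groups ate a high-fat diet with 45% of energy from fat, HFD-C being sedentary. The other mice had a running wheel in the cage. HFD-U mice ran a mean of 8.3 km/day without restriction, and the restricted groups were held to about 2.1 km/day (HFD-25%), 4.2 km/day (HFD-50%) or 6.3 km/day (HFD-75%). In the restricted groups the wheel was unlocked at lights off and braked once the day's distance had been run. The hour at which each mouse was killed is not given in the sources used here. Whether mice shared a litter or cage is not given either, so p-values measure the spread between these mice.

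Total counts ran from 13060090 to 27981702 per library. The rRNA-linked features found were 5: AY036118, LOC118568312, mt-Rnr1, mt-Rnr2 and Lars2. For Lars2 the authors reported a significant response to running distance. On these 5 features, 2 sets of libraries stood apart. The share of counts there was 2.01 to 3.80% in 10 libraries, all 6 of NFD-C and HFD-C mice 1 to 4, and 0.404 to 1.02% in the other 26, which are HFD-C mice 5 and 6 and all 24 running mice. Comparisons among running mice lie within the second set, and comparisons with HFD-C are given again with HFD-C mice 5 and 6 alone. Markers of muscle fibres summed to 77379 to 155542 CPM (counts scaled to the TMM-corrected library size), and 7 of 7 were detected, so the libraries carried the labelled tissue. The 5 immune markers summed to 7.30 to 20.9 CPM in any mouse and the 5 adipocyte markers to 0.460 to 74.1 CPM. The 5 slow fibre markers had medians of 1109 CPM in HFD-50% and 336 CPM in HFD-U, with ranges of 409 to 2690 and 110 to 1062, and the part of fibre type in the results was not tested. In muscle as a whole, fewer cells with a transcript and less of it per cell cannot be told apart.

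All 8 genes were well above the minimum mean count of 25 used in the fits, with mean counts from 172 for Ciart to 5734 for Tef. Per length of transcript, Tef was the most abundant at a mean of 47.3 FPKM (CPM per kilobase of transcript) over the 36 mice. It was followed by Dbp at 30.7, Bhlhe40 at 23.5, Nr1d2 at 19.9, Nr1d1 at 14.1, Bhlhe41 at 9.52, Ciart at 4.11 and Hlf at 2.63 FPKM. The genes also differed in how much they varied. The highest mouse exceeded the lowest 14.6-fold for Dbp, 13.2-fold for Ciart, 11.1-fold for Bhlhe41 and 9.06-fold for Nr1d1, but only 4.81-fold for Bhlhe40, 4.62-fold for Hlf, 1.91-fold for Tef and 1.67-fold for Nr1d2. Nr1d2 and Tef, the members of their families with the highest FPKM, thus covered a narrower range than Nr1d1 and Dbp.

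On GRCm39, the build whose chromosome sequences the count table names, the REV-ERB genes lie at chr11:98658758-98666233 (Nr1d1, minus strand) and chr14:4230549-4265640 (Nr1d2, plus strand). The DEC genes share a chromosome, at chr6:108637590-108643886 (Bhlhe40, plus strand) and chr6:145803969-145811146 (Bhlhe41, minus strand). Dbp is at chr7:45354518-45359627 (plus strand), Tef at chr15:81686874-81711064 (plus strand), Hlf at chr11:90227361-90281743 (minus strand) and Ciart at chr3:95785812-95789775 (minus strand). Of these spans 4 meet another gene. Nr1d1 shares 1075 bases with Thra, the thyroid hormone receptor alpha gene, and Dbp shares 741 bases with Sphk2, both on the opposite strand, and the sources do not say that the counting used strand. Bhlhe40 shares 306 bases with 0610040F04Rik on the opposite strand, which averaged 0.319 CPM. Ciart lies within C920021L13Rik on the opposite strand, at 0.474 CPM, and shares 111 bases with BC028528 on its own strand, at 0.910 CPM.

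Upstream sequence was matched for 7 of the 8 genes in RefSeq's GRCm38.p6 annotation, and the 250 bases before the start are shown for Ciart, Bhlhe41 and Tef because they hold a perfect E-box, the site through which CLOCK and BMAL1 act. Capitals mark CACGTG, which reads alike on both strands. Ciart held it at -116, -58 and -44 from the start (chr3:95882229-95882478, minus strand), Bhlhe41 at -153 (chr6:145865421-145865670, minus strand), and Tef at -127 from the start whose upstream stretch is chr15:81802423-81802672 and at -138 from the start whose stretch is chr15:81811164-81811413, both on the plus strand.
Ciart: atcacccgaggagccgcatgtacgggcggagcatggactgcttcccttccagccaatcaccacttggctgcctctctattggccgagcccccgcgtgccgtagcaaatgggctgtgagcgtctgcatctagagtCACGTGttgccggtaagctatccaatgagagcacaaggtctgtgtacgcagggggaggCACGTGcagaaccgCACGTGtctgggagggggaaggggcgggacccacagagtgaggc
Bhlhe41: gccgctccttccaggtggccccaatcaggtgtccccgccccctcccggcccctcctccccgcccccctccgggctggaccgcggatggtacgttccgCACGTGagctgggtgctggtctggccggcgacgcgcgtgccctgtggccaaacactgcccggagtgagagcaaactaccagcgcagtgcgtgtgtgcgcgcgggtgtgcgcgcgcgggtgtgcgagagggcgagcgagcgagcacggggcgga
Tef, upstream start: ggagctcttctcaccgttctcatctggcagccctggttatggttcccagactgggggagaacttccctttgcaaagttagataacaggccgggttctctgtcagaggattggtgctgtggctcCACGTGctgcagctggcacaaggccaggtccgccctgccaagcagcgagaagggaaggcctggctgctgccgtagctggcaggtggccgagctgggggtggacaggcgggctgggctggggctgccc
Tef, downstream start: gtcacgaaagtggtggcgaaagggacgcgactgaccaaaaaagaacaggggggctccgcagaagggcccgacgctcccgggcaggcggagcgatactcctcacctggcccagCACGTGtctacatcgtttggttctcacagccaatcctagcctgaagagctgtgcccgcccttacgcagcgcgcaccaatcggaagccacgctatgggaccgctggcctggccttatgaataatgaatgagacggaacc

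The E-box letters were found for 3 of 7 genes and in 7.15% of all 32851 promoter windows of 300 bases, searched from 250 bases before to 50 after the start. Nr1d2 is shown for the other clock element that was found, AGGTCA in capitals, the core of the element that REV-ERB proteins bind, at -77 in chr14:18239107-18239356 (minus strand).
Nr1d2: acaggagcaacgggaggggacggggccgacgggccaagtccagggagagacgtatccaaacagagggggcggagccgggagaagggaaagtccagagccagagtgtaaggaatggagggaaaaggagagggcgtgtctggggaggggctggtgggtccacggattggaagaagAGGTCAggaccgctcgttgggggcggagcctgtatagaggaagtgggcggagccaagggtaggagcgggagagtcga

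AGGTCA on either strand was found for 1 of 7 genes and in 16.3% of all windows. The D-box letters TTATGTAA or TTACGTAA, on either strand, were found for 0 of 7 and in 1.06% of all windows. These counts describe letters in a short window and nothing more.

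Across the 6 groups, HFD-U had the highest mean of all 8 genes. For 6 of them HFD-50% had the lowest mean, and HFD-75% had it for Nr1d2 and Ciart, and the second lowest mean was always in the other of these groups. Steps between neighbouring groups were small against the spread of the mice. Of 40 such steps, 3 exceeded the pooled SD, from HFD-U to HFD-C for Dbp and Ciart and from HFD-25% to HFD-75% for Hlf, and the ranges of neighbours overlapped in 40 of 40.

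Among the REV-ERB genes, the transcriptional repressor Nr1d1 measured 34.5 to 118 CPM in HFD-U (median 71.1), 16.4 to 37.1 CPM in HFD-50% (median 21.1) and 13.1 to 37.3 CPM in HFD-75% (median 26.7). Of the 6 mice in each restricted group, 5 of HFD-50% and 5 of HFD-75% lay below every HFD-U mouse, and the ranges met only through HFD-U mouse 5. In the other groups Nr1d1 averaged 33.2 ± 11.7 CPM (SD, n = 6) in HFD-25%, 45.03 ± 15.3 in HFD-C and 49.9 ± 30.3 in NFD-C, the last of these with a single mouse at 109.9 and the others at 31.2 to 51.5. Its close relative Nr1d2, which represses the same sites, differed far less, with 152 to 194 CPM in HFD-U (median 165), 120.4 to 159 in HFD-50% (median 143) and 116 to 153 in HFD-75% (median 140). The Nr1d2 ranges overlapped in both cases.

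Of the DEC genes, whose products bind E-boxes and repress transcription there, Bhlhe40 measured 67.9 to 166 CPM in HFD-U (median 107) and 37.1 to 56.7 CPM in HFD-50% (median 51.3), and these groups did not overlap. Bhlhe40 in HFD-75% ran from 43.0 to 75.8 CPM (median 51.9), with 5 of 6 mice below every HFD-U mouse. HFD-25%, at 57.0 ± 12.0 CPM (SD, n = 6), resembled the other restricted groups in this gene, while HFD-C averaged 90.2 ± 21.4. Bhlhe41 measured 56.5 to 117 CPM in HFD-U (median 79.5), 10.6 to 44.1 in HFD-50% (median 40.7) and 28.9 to 54.1 in HFD-75% (median 50.2). Neither restricted group overlapped HFD-U in Bhlhe41. The low end in HFD-50% was mouse 4, and the other mice of that group lay between 32.7 and 44.1 CPM.

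The PAR bZIP activators, some with wide and some with narrow ranges, all had their highest mean in HFD-U and their lowest in HFD-75% and then HFD-50%. The groups between came in different orders. Dbp, the one most used as a readout of clock output, measured 92.0 to 129 CPM in HFD-U (median 119), 8.91 to 87.0 in HFD-50% (median 45.4) and 18.2 to 84.9 in HFD-75% (median 62.6). No mouse of HFD-50% or HFD-75% reached the lowest HFD-U mouse. The spread of Dbp was smallest in HFD-U (SD of 14.3 CPM). In every other group it was wider, with an SD of 33.4 CPM in HFD-50%, 24.3 in HFD-75%, 26.5 in HFD-25%, 29.7 in HFD-C and 30.3 in NFD-C. In Tef the HFD-U mice measured 342 to 429 CPM (median 366), above all HFD-50% mice at 225 to 339 (median 297) but overlapping HFD-75% at 282 to 357 (median 313). Hlf measured 14.5 to 21.6 CPM in HFD-U (median 18.6), 5.03 to 17.7 in HFD-50% (median 12.99) and 8.57 to 17.2 in HFD-75% (median 13.2), and its groups overlapped.

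Ciart, whose product CHRONO represses CLOCK and BMAL1, measured 12.6 to 26.8 CPM in HFD-U (median 14.6), 2.07 to 7.74 CPM in HFD-75% (median 4.32) and 2.04 to 12.9 CPM in HFD-50% (median 5.12). HFD-75% did not overlap HFD-U, and HFD-50% did so only through mouse 3. HFD-25%, HFD-C and NFD-C averaged 10.4 ± 5.08, 10.5 ± 6.50 and 10.4 ± 7.81 CPM (SD, n = 6), so their means were nearly equal and their mice spread widely.

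HFD-50% was compared with HFD-U, 6 mice against 6, in a fit of edgeR's quasi-likelihood test over all genes. All 8 genes were lower in HFD-50%, and all 8 at an unadjusted p of at most 0.05, where 5.34% of all genes tested were lower at that limit. The median log2 fold change was -1.17 over the 8 genes and 0.02 over all genes. None passed Benjamini-Hochberg adjustment over all genes in edgeR (0 of 8, background 0.00844%), while DESeq2 on the same genes passed 4 (Nr1d1, Bhlhe40, Bhlhe41 and Ciart, background 0.861%). With the rRNA-linked share of each library as a covariate, 4 of the 8 reached the unadjusted limit (background 4.58%), namely Nr1d1, Nr1d2, Bhlhe40 and Ciart. The other 4 then had log2 fold changes of -0.43 ± 0.25 (SE, Bhlhe41, unadjusted p = 0.113), -0.75 ± 0.59 (Dbp, unadjusted p = 0.223), -0.26 ± 0.15 (Tef, unadjusted p = 0.109) and -0.30 ± 0.29 (Hlf, unadjusted p = 0.325). That share was 0.559 to 1.02% in HFD-50% and 0.470 to 0.622% in HFD-U. In 4 genes the groups did not overlap (Bhlhe40, Bhlhe41, Dbp and Tef), as in 0.38% of all genes. The log2 fold change was -1.56 ± 0.28 (SE) for Nr1d1 and -1.57 ± 0.38 for Ciart, and the HFD-U means were 2.96 and 2.98 times those of HFD-50%. Adjusted p was 0.0731 for Nr1d1 and for Bhlhe40 in edgeR, the latter at -1.17 ± 0.19 on the log2 scale, and it ranged from 3.98e-05 to 0.89 for Nr1d1 and from 3.19e-05 to 0.732 for Bhlhe40 over 19 other settings. Bhlhe41 differed by -1.18 ± 0.28 and Dbp by -1.23 ± 0.41, and the smaller differences were -0.57 ± 0.23 for Hlf, -0.35 ± 0.12 for Tef and -0.24 ± 0.11 for Nr1d2. Nr1d2 no longer reached the unadjusted limit in 7 of the 12 fits that left out 1 mouse (HFD-50% mouse 1, 2 or 5 or HFD-U mouse 1, 2, 3 or 4, unadjusted p up to 0.116), nor did Hlf in 2 (HFD-50% mouse 5 or HFD-U mouse 2, unadjusted p up to 0.056). Thra, which overlaps Nr1d1, differed by -0.17 ± 0.09 (unadjusted p = 0.0817), and Sphk2, which overlaps Dbp, by 0.35 ± 0.16 in the direction opposite to Dbp.

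In HFD-75% against HFD-U, all 8 genes were again lower at an unadjusted p of at most 0.05 (background 2.88% lower), 0 passed adjustment in edgeR (background 0%), and 4 did in DESeq2 (background 0.194%), the same 4 as above. These comparisons share the HFD-U mice, so the likeness of their values is not a separate result. Ciart had the largest difference among the 8 genes, -1.90 ± 0.28 (SE) on the log2 scale with an adjusted p of 0.0644 in edgeR, and its mean was 3.71 times higher in HFD-U. Nr1d1 differed by -1.51 ± 0.28, Bhlhe40 by -0.97 ± 0.20, Dbp by -0.96 ± 0.26 and Bhlhe41 by -0.79 ± 0.18. Hlf (-0.47 ± 0.15), Nr1d2 (-0.29 ± 0.10) and Tef (-0.23 ± 0.09) differed least. Groups did not overlap for Bhlhe41, Dbp and Ciart (background 0.22%). Leaving out HFD-75% mouse 1 or mouse 6 brought Ciart, and none of the other 7, past adjustment. Tef missed the unadjusted limit without HFD-75% mouse 5 or HFD-U mouse 3 (unadjusted p up to 0.0611). Sphk2 was 0.34 ± 0.12 higher in HFD-75%.

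HFD-25% differed less from HFD-U. All 8 genes were lower in sign, with 5 at an unadjusted p of at most 0.05 (background 1.81% lower) and 0 after adjustment in edgeR (background 0%) or DESeq2. These were Nr1d1 (-1.14 ± 0.28 on the log2 scale, SE), Bhlhe40 (-0.93 ± 0.21), Ciart (-0.74 ± 0.31), Dbp (-0.51 ± 0.20) and Bhlhe41 (-0.50 ± 0.19). Nr1d2, Tef and Hlf had log2 fold changes of -0.09, -0.10 and -0.16. With the rRNA-linked share added as a covariate 3 reached the limit (background 2.91%), and Dbp (-0.41, unadjusted p = 0.0553) and Ciart (-0.72, unadjusted p = 0.0554) did not. Leaving out 1 mouse also left Ciart short of it (HFD-25% mouse 4 or 5, HFD-U mouse 3 or 6, unadjusted p up to 0.0973), Bhlhe41 (HFD-U mouse 2, unadjusted p = 0.0614) and Dbp (HFD-25% mouse 4, unadjusted p = 0.0502). The groups overlapped for every gene, with 5 of 6 HFD-25% mice below all HFD-U mice in Bhlhe40 and 4 of 6 in Nr1d1, Dbp and Ciart.

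**Figure D1:**
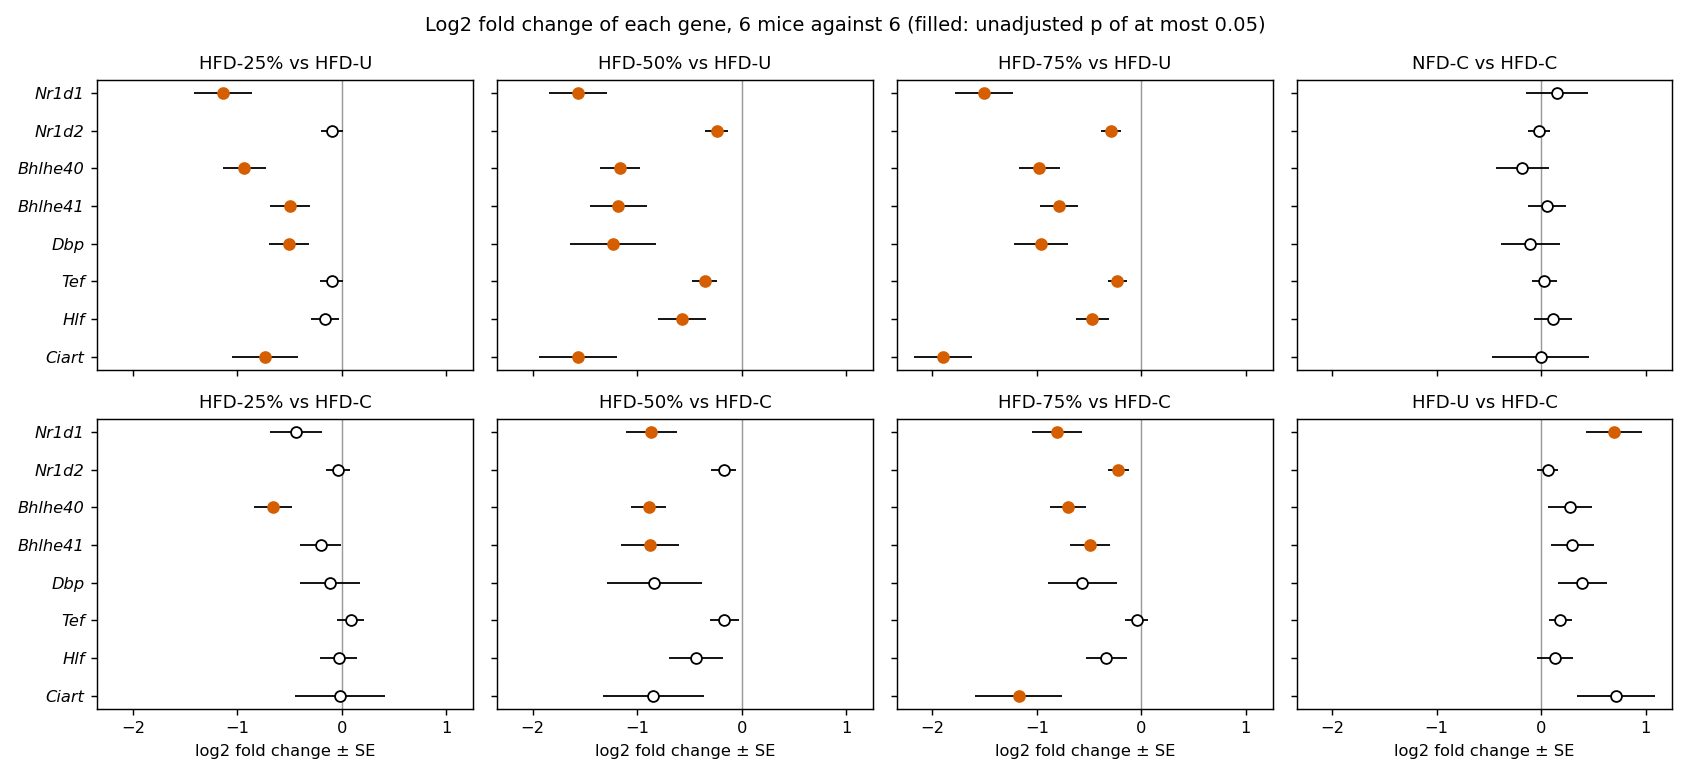
Log2 fold change of each gene with its SE in 8 comparisons of 6 mice with 6 (edgeR), the first group named against the second, and filled points at an unadjusted p of at most 0.05. Against HFD-U all 8 points are filled for HFD-50% and HFD-75% and 5 for HFD-25%, and NFD-C against HFD-C has 0 filled points.

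Few of these genes differed between the restricted groups at an unadjusted p of at most 0.05 in the main fits. Between HFD-50% and HFD-75%, 0 of 8 genes reached an unadjusted p of at most 0.05 (background 5.37%), 6 being lower and 2 higher in HFD-50%, and log2 fold changes ran from -0.38 for Bhlhe41 to 0.33 for Ciart. Their standard errors, 0.26 and 0.41, leave room for differences of that size. Between HFD-50% and HFD-25%, all 8 were lower in HFD-50% and 1 reached that limit, Bhlhe41 at -0.68 ± 0.27 (background 0.948% lower). Bhlhe41 missed it without HFD-25% mouse 3 (-0.59, unadjusted p = 0.0563) and with the rRNA-linked share added as a covariate (-0.18 ± 0.23, unadjusted p = 0.443). With the mouse number added as a block, 5 of 8 genes reached it (background 3.63% in either direction). Without HFD-25% mouse 2 or without HFD-50% mouse 3, 4 of 8 did (background 2.62% and 3.68% in either direction). Between HFD-25% and HFD-75% all 8 were higher in HFD-25% and 1 reached it, Ciart at 1.16 ± 0.36 (background 2.18% higher), with 4 of 6 HFD-25% mice above every HFD-75% mouse. Without HFD-25% mouse 2, 4 of 8 genes reached it there (background 4.73% in either direction). None passed adjustment in these 3 comparisons in edgeR (0 of 8 each, background 0%) or in DESeq2 (0 of 8 each, background 0.00831% for HFD-25% against HFD-75% and 0% in the others).

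The means of the sedentary HFD-C mice lay below HFD-U and above HFD-50% and HFD-75% in all 8 genes. Against HFD-C, HFD-50% was lower in all 8 genes, 3 of them at an unadjusted p of at most 0.05 (background 4.89% lower): Bhlhe40 at -0.89 ± 0.17 (SE, log2 scale), Bhlhe41 at -0.88 ± 0.28 and Nr1d1 at -0.86 ± 0.24. All 6 HFD-50% mice lay below every HFD-C mouse in Bhlhe40 (background 0.421%), where the highest HFD-50% mouse had 56.7 and the lowest HFD-C mouse 57.6 CPM. In edgeR 0 passed adjustment (background 0%), and in DESeq2 Nr1d1 and Bhlhe40 did (background 1.32%). Without HFD-C mouse 4, the lowest of its group in Bhlhe40, this gene also passed in edgeR. With the low-share HFD-C mice 5 and 6 alone, the log2 fold changes were -0.77 for Bhlhe40, -0.95 for Bhlhe41, -0.77 for Nr1d1 and -1.27 for Ciart, and 4 genes reached the unadjusted limit (background 9.45% in either direction).

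HFD-75% was lower than HFD-C in all 8 genes and reached the unadjusted limit in 5 (background 3.16% lower), with 0 past adjustment in edgeR (background 0%) and Bhlhe40 alone in DESeq2 (background 0.33%). Ciart differed by -1.18 ± 0.42 (SE, log2 scale), Nr1d1 by -0.81 ± 0.24, Bhlhe40 by -0.70 ± 0.17, Bhlhe41 by -0.49 ± 0.19 and Nr1d2 by -0.22 ± 0.10. Nr1d2 missed the limit in 8 of the 12 fits that left out 1 mouse (HFD-C mouse 1, 2, 5 or 6 or HFD-75% mouse 2, 3, 4 or 5, unadjusted p up to 0.109), and Bhlhe41 without HFD-C mouse 3 (unadjusted p = 0.0719). With the low-share HFD-C mice alone 5 genes reached the limit (background 8.99% in either direction), and Ciart differed by -1.61. HFD-25% reached it in Bhlhe40 alone, at -0.66 ± 0.18 (background 3.58% lower) and -0.54 within the low-share libraries, with 0 past adjustment in edgeR (background 0.0082%) or DESeq2 (background 0.361%). With the rRNA-linked share added as a covariate Bhlhe40 was at -0.50 ± 0.24 (unadjusted p = 0.0593), and 0 of 8 reached the limit (background 13.3%). Thra was itself lower than in HFD-C by -0.34 ± 0.10 in HFD-50%, -0.31 ± 0.11 in HFD-25% and -0.26 ± 0.11 in HFD-75%, less than Nr1d1 in each.

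HFD-U was higher than HFD-C in all 8 genes, with 1 at an unadjusted p of at most 0.05, Nr1d1 at 0.70 ± 0.27 (SE, log2 scale, background 2.15% higher). Same-numbered mice of HFD-U and HFD-C deviated together over all genes (r from 0.125 to 0.510, highest for the mice numbered 1), so the mouse number was also fitted as a block. The sources do not say what a number marks, so this pairing rests on the same data. Mice of different numbers were not compared in this way. With the block 5 genes reached that limit (background 10.2% in either direction), Nr1d1 (0.66 ± 0.17), Ciart (0.88 ± 0.32), Dbp (0.49 ± 0.19), Bhlhe40 (0.25 ± 0.11) and Tef (0.19 ± 0.09), and adjusted p was 0.218 or more for each in edgeR. None of the 8 passed adjustment in edgeR (background 0%), with the block (background 0.0915%) or in DESeq2 without it (background 0.233%). Without HFD-U mouse 3, Nr1d1 missed the unadjusted limit in the fit without the block (unadjusted p = 0.0641). With the low-share HFD-C mice alone 0 reached that limit (background 11.8%), with Nr1d1 at 0.78 ± 0.37, and with the rRNA-linked share added as a covariate 0 did (background 12.4%).

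Between the sedentary groups, where the diets differed and neither had a wheel, 0 of 8 genes reached an unadjusted p of at most 0.05 (background 4.12%) and 0 passed adjustment in edgeR (background 0%) or DESeq2 (background 0.0163%). The log2 fold changes of NFD-C against HFD-C ran from -0.18 ± 0.25 (SE) for Bhlhe40 to 0.16 ± 0.30 for Nr1d1, 4 of them above 0 and 4 below. Nr1d2, Tef and Bhlhe41 were the most tightly bounded, with standard errors of 0.11, 0.12 and 0.18 and log2 fold changes of -0.02, 0.03 and 0.06. Within the high-share libraries, 6 NFD-C mice against HFD-C mice 1 to 4, the same genes were at 0.03, 0.09 and 0.09.

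The response to running distance was fitted as a curve, in which the level could bend once with the assigned distance. The distance was taken as a percent of unrestricted running (terms for the distance and its square, edgeR). Over the 24 running mice Bhlhe40 (adjusted p = 0.00572) and Nr1d1 (adjusted p = 0.0119) passed adjustment, 2 of 8 genes where 5 of all 11935 did (0.0419%), and all 8 were within the unadjusted limit (background 8.49%). Ciart had an adjusted p of 0.0848 and Bhlhe41 of 0.111, and the others of 0.349 or more. Since these results were in view when the genes were chosen, the counts describe them only. The call depended on the mice at the far end: without HFD-U mouse 6 neither gene passed, and without HFD-U mouse 3 Bhlhe40 alone did. With the rRNA-linked share of each library as a covariate, adjusted p was 0.0971 for Bhlhe40 and 0.192 for Nr1d1. A straight line in the distance gave 0.488 and 0.569.

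With the sedentary HFD-C mice added as a distance of 0, 30 mice in all, the same 2 genes passed adjustment, Bhlhe40 at 1.00e-04 and Nr1d1 at 0.00361 (background 0.683%), and 7 were within the unadjusted limit, Tef being the exception (background 12.2%). With a term for the library set these values were 0.00345 and 0.0146. A test of any difference among all 6 groups passed 3 genes after adjustment (background 1.45%), Bhlhe40 at 0.00722, Nr1d1 at 0.00845 and Bhlhe41 at 0.0315, and 7 within the unadjusted limit (background 12.2%). With a term for the library set 0 passed, with adjusted p of 0.0793 for both Bhlhe40 and Nr1d1 and 0.143 for Bhlhe41 in edgeR, and 7 were within the unadjusted limit, Hlf now being the exception where it had been Tef.

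Mice of the same group also varied, and whether the 8 genes varied together was examined from log2 CPM as deviations from the group mean over all 36 mice. The correlation was positive in 28 of 28 pairs of the 8 genes, with Pearson's r from 0.07 to 0.84 and a median of 0.59, and 25 pairs had an adjusted p of at most 0.05 by permutation within groups (36 relations, Benjamini-Hochberg adjustment). How often other genes correlate in this way with each other, or with Arntl, was not examined, so the counts describe these genes only. Nr1d1 and Bhlhe40 gave r = 0.84 and rho = 0.84 (adjusted p = 7.2e-05 and 9e-05, permutation p = 1e-05 for each, the smallest that 100000 resamples can give). Leaving out the 2 mice farthest from the median gave r = 0.79, the 10 high-share libraries 0.91 and the 26 low-share libraries 0.79. The next closest pair was Dbp and Tef, with r = 0.83 and rho = 0.83 (permutation p = 1e-05 for each, adjusted p = 7.2e-05 and 9e-05), 0.81 without the 2 farthest mice, and 0.94 and 0.80 within the library sets. The loosest pair was Nr1d2 and Bhlhe41, with r = 0.07 and rho = 0.16 (permutation p = 0.73 and 0.392, unchanged by adjustment), 0.05 without the 2 farthest mice, and 0.35 and -0.02 within the library sets.

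**Figure D2:**
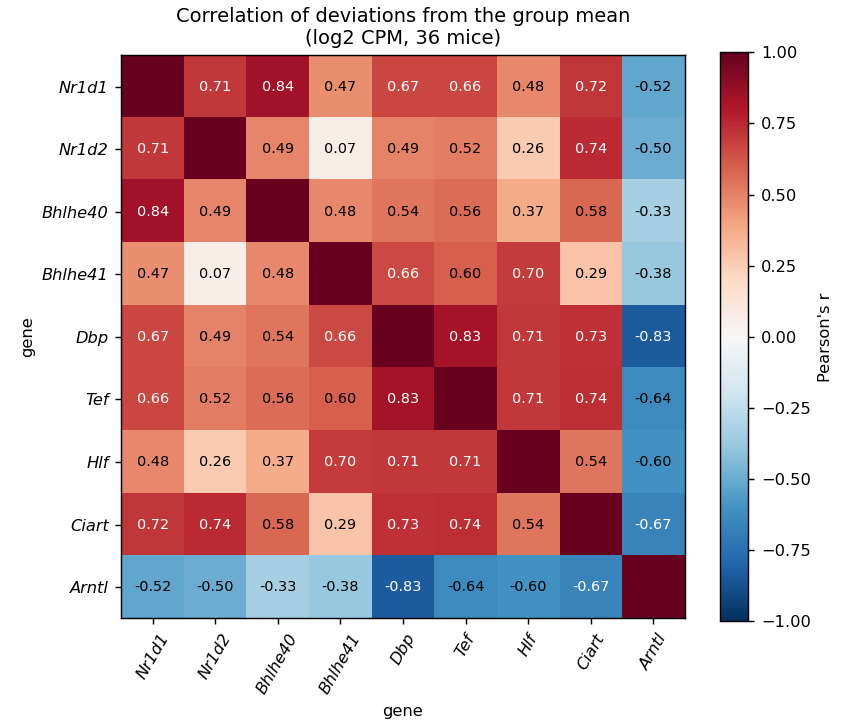
Pearson's r between the deviations of log2 CPM from the group mean for the 8 genes and Arntl (36 mice), coloured from -1 to 1 and printed in each cell. The block of the 8 genes is positive throughout, from 0.07 to 0.84, and the Arntl row is negative throughout, from -0.83 to -0.33.

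Arntl, which encodes BMAL1, ran against all 8 genes. Its correlation was negative with 8 of 8, from -0.83 with Dbp to -0.33 with Bhlhe40, and 7 of these had an adjusted p of at most 0.05, Bhlhe41 (r = -0.38, rho = -0.23, permutation p = 0.0767 and 0.225, adjusted p = 0.0837 and 0.231) being the exception. With Dbp, r was -0.83 and rho -0.78 (permutation p = 1e-05 for each, adjusted p = 7.2e-05 and 9e-05), -0.77 without the 2 farthest mice, -0.60 in the high-share and -0.89 in the low-share libraries. For Ciart r was -0.67 and rho -0.67 (permutation p = 5e-05 and 9e-05, adjusted p = 0.000138 and 0.000295), -0.72 without the 2 farthest mice, and -0.59 and -0.76 within the library sets. Nr1d1 gave r = -0.52 and rho = -0.49 (permutation p = 0.00072 and 0.00425, adjusted p = 0.0013 and 0.00612), -0.55 without the 2 farthest mice, and -0.13 and -0.65 within the sets, so in the high-share libraries its relation was weak.

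Single mice show how far this went. HFD-50% mouse 4 had the highest Arntl of all mice at 36.8 CPM and the lowest Dbp at 8.91 CPM, and HFD-75% mouse 5 had 33.3 CPM of Arntl and 18.2 CPM of Dbp. In the same groups HFD-50% mouse 3 had 5.58 CPM of Arntl and 87.0 of Dbp, and HFD-75% mouse 3 had 8.31 and 84.9. The restricted groups thus held mice at both ends of this relation, while the 6 HFD-U mice lay together, at 5.09 to 9.68 CPM of Arntl and 92.0 to 129 CPM of Dbp.

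**Figure D3:**
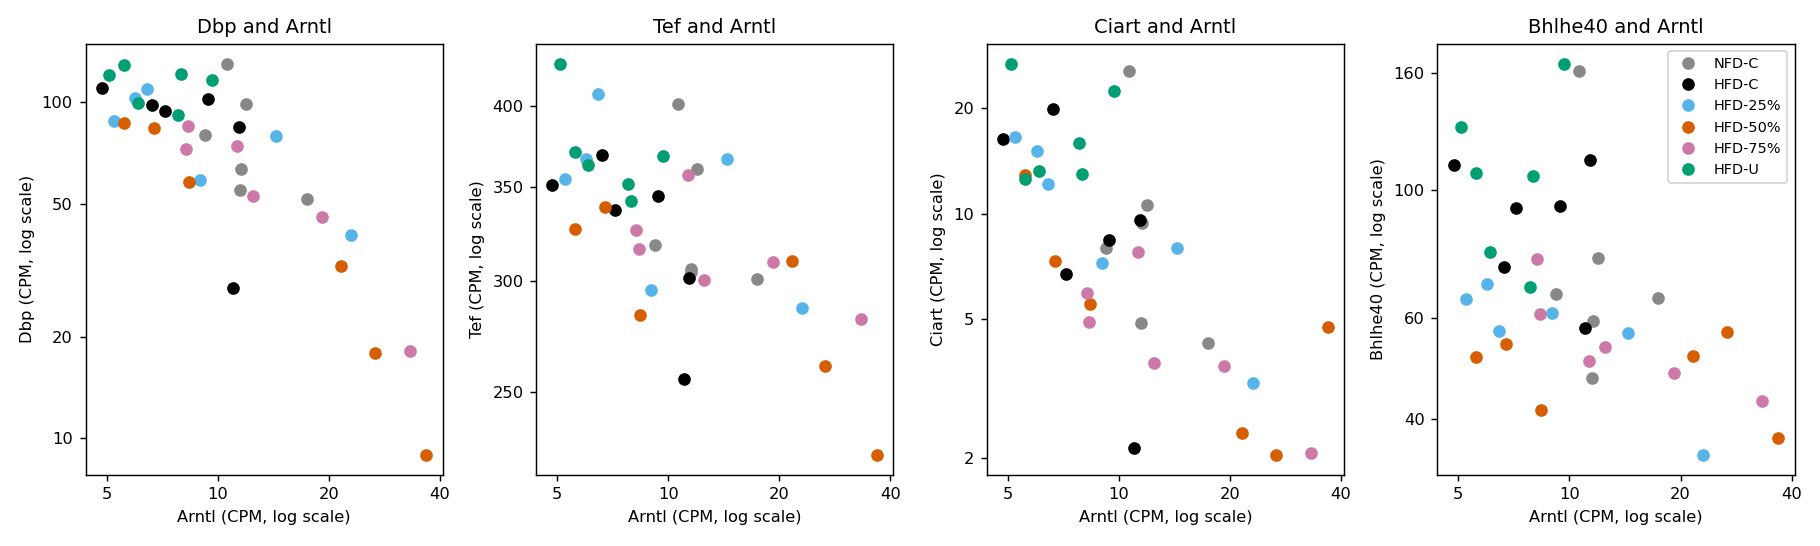
Dbp, Tef, Ciart and Bhlhe40 against Arntl in 36 mice, in CPM on log axes, with a colour for each group. Mice high in Arntl, such as HFD-50% mouse 4 at 36.8 CPM, are low in Dbp (8.91 CPM), and the 6 HFD-U mice sit at the low end of Arntl and the high end of Dbp.

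Arntl averaged 7.03 ± 1.75 CPM (SD, n = 6) in HFD-U, 17.6 ± 12.8 in HFD-50% and 15.5 ± 9.61 in HFD-75%. Among these 3 running groups it was thus higher where the 8 genes were lower. The difference from HFD-U was 1.33 ± 0.41 (SE, log2 scale, unadjusted p = 0.00556, adjusted p = 0.262 in edgeR) in HFD-50% and 1.15 ± 0.32 (unadjusted p = 0.00232, adjusted p = 0.506) in HFD-75%. Its partner Clock differed by 0.10 and -0.01. Of the 3 core activators tested (Arntl, Clock and Arntl2), 1 reached the unadjusted limit in each comparison (background 12.4% and 5.57% in either direction), and it was Arntl. In the sedentary groups Arntl ran from 9.21 to 17.4 CPM in NFD-C and from 4.85 to 11.4 CPM in HFD-C. Between these groups 1 of the 3 core activators tested reached the unadjusted limit, higher in NFD-C (background 1.98% higher). None of the 8 genes did.

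Other clock genes were read from lists written by hand, and 0 of them passed adjustment against HFD-U in edgeR. Of Per1, Per2, Per3, Cry1 and Cry2, the repressors of the first feedback loop, 0 of 5 reached the unadjusted limit in HFD-50% (background 12.4% in either direction). In HFD-75% 2 of 5 did (background 5.57% in either direction), Per3 at -0.71 ± 0.22 (SE, log2 scale) and Per1 at -0.29 ± 0.13. Nfil3, a repressor at D-boxes that opposes DBP, TEF and HLF, had log2 differences of 1.08 ± 0.26 (HFD-50%) and 0.76 ± 0.26 (HFD-75%). Among 7 clock kinases and ubiquitin ligases tested, 1 reached the limit in each comparison, which is near the background in HFD-50%. It was Btrc, at -0.39 ± 0.13 in HFD-50% and -0.29 ± 0.13 in HFD-75%.

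The 8 listed clock-controlled genes did not move one way. Against HFD-U, 3 were higher and 2 lower at the unadjusted limit in HFD-50% (background 7.08% higher and 5.34% lower), and 3 higher and 1 lower in HFD-75% (background 2.69% higher and 2.88% lower), with medians of 0.18 and 0.05 on the log2 scale. Pdk4, which restrains the entry of pyruvate into the mitochondrial cycle, was higher by 0.87 ± 0.30 (SE) and 0.77 ± 0.18 and Ucp3 by 0.50 ± 0.15 and 0.54 ± 0.17, while Nampt, an enzyme of NAD synthesis, was lower by -0.37 ± 0.12 and -0.30 ± 0.13. Pdk4 is also in the list of 10 glucocorticoid response genes and is counted again there. Of these 10, 5 were higher and 1 lower in HFD-50% and 3 higher in HFD-75%, against the same backgrounds, Fkbp5 by 0.90 ± 0.24 and 0.73 ± 0.23. Of the 5 in HFD-50%, the metallothionein genes Mt1 and Mt2 had medians of 32.0 and 12.5 CPM, against 32.7 and 12.6 in HFD-U, and maxima of 652 and 351 CPM. Of 7 immediate early genes tested 1 was lower in each, against the same backgrounds, Nr4a1, by -0.89 ± 0.22 and -0.50 ± 0.22. In the distance fit over 30 mice Fkbp5 passed adjustment, at 0.0178, and it was the only gene of these lists outside the 8 to do so in that fit. The test of any difference among the 6 groups passed 2 of the 10 glucocorticoid response genes and 1 of the 7 immediate early genes (background 1.45%).

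**Figure D4:**
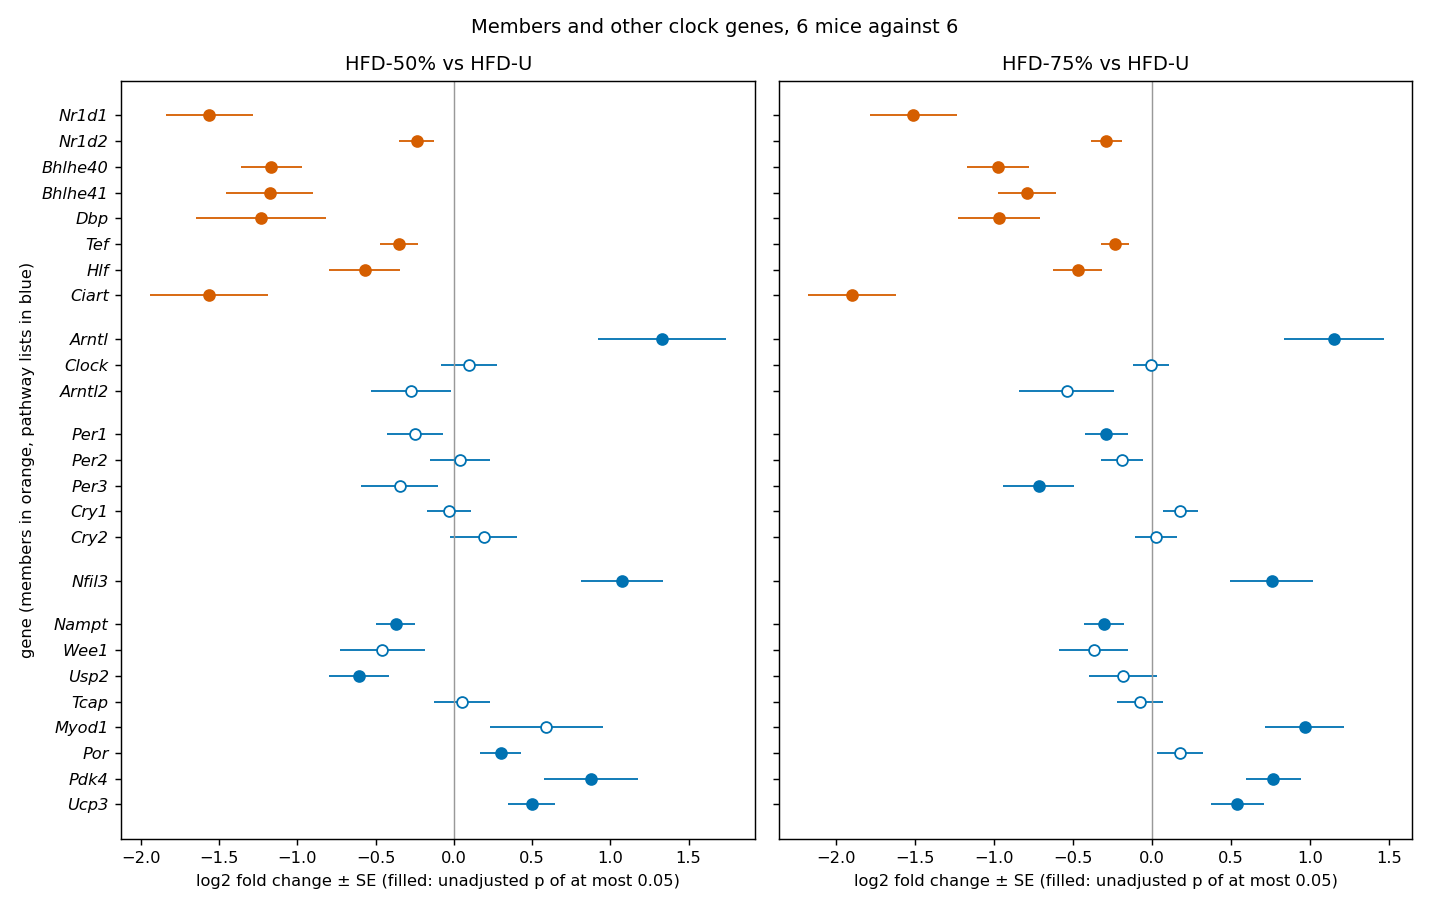
Log2 fold change with its SE of the 8 genes (orange) and of the listed activators, Per and Cry genes, Nfil3 and clock-controlled genes (blue), HFD-50% and HFD-75% against HFD-U, filled at an unadjusted p of at most 0.05. The 8 genes lie left of 0 in both panels, and Arntl, Nfil3, Pdk4 and Ucp3 lie right of it, Arntl at 1.33 and 1.15.

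Among the 11941 genes that passed the filter over all libraries, the genes most like each of the 8 over the 36 mice were sought by Pearson's r of log2 CPM, group differences included. These are the extremes of many correlations and are given without a test. Bhlhe41 had the closest match, with Slc41a3 (r = 0.90, rho = 0.85) and Tmem233 (r = 0.89, rho = 0.83), and Dbp followed with Ky (r = 0.85, rho = 0.73). Nr1d1 and Ciart had the same closest gene, Pik3cd (r = 0.74 for each, rho = 0.78 and 0.74). For Nr1d2 it was Coq10b (r = 0.72, rho = 0.75), for Bhlhe40 Dusp10 (r = 0.77, rho = 0.75), for Tef Slc45a4 (r = 0.77, rho = 0.73) and for Hlf Mrtfa (r = 0.81, rho = 0.75). The gene running most against them was Angptl4, which encodes an inhibitor of lipoprotein lipase, for Ciart (r = -0.82, rho = -0.83), Nr1d1 (r = -0.80, rho = -0.84) and Nr1d2 (r = -0.72, rho = -0.66). For Bhlhe40 it was the lipid droplet gene Plin4 (r = -0.79, rho = -0.78), and for Dbp Lrrc30 (r = -0.84, rho = -0.74).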

How the data were processed

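Gastrocnemius RNA of 36 mice was sequenced from poly(A)-selected paired-end libraries, 1 per mouse. The authors aligned the reads with HISAT2 v2.0.5 and counted them per gene with featureCounts v1.5.0-p3, and deposited whole-number counts without normalization. The submitters' processing notes name mm10, whereas the chromosome sequences in the count table are those of GRCm39, whose positions are given here. The notes also name StringTie v1.3.3b, DESeq2 v1.20.0 and edgeR v3.22.5, which are not needed for the counts. Rows without a gene name (562, with 0.262% of counts) were kept, since each has an identifier.

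Tests used edgeR 4.0.16 under R 4.3.3, on features averaging 25 counts or more in the libraries fitted, with TMM factors, glmQLFit and glmQLFTest, two-sided, with Benjamini-Hochberg adjustment over all genes. The unadjusted limit of 0.05 is the one the study used. CPM used TMM-scaled library sizes, FPKM divided it by the gene lengths in the table, and log2 CPM had a prior count of 2. Correlations were tested with 100000 permutations within groups. With 13060090 to 27981702 counts per library, counting error was small beside the differences between mice, since the chi-square per degree of freedom between replicates was 14.7 or more. DESeq2 1.42.0, RLE size factors, no minimum count, the mouse number as a block, the rRNA-linked share, library sets and leaving out each mouse were alternatives. The fits were tested on simulated data.

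Members, gene lists, tests and alternatives were chosen with earlier results of these data known. Genes named are the 8 members, genes of the hand-written lists (1 list is reported here for Nfil3 alone), for each member the 2 most alike and the 1 most opposite gene, and Thra, Sphk2, C920021L13Rik, BC028528 and 0610040F04Rik, added after the overlaps were seen. Mice carry the numbers 1 to 6 in each group, and the sources do not say what a number marks. Deviations of same-numbered mice correlated above 0.1 in all 6 pairs of HFD-C and HFD-U (0.125 to 0.510), and in 1 to 5 of 6 elsewhere. For the mice numbered 1, the correlation was 0.323 to 0.598 over all pairs of groups.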

Additional observations from a re-analysis of the deposited data

Results flagged for a closer look

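In groups of 6 mice, a value was taken up here when its gap to the nearest other mouse exceeded Dixon's 95% critical value as a part of the group's range. Chance alone flags about 1 in 20 groups, and 7 of the 48 combinations of gene and group met this limit. NFD-C mouse 2 stood above its group in 3 genes, with 109.9 CPM of Nr1d1, 162 CPM of Bhlhe40 and 25.6 CPM of Ciart. HFD-50% mouse 4 was far below its group in Bhlhe41, at 10.6 CPM, and had the highest Arntl of all mice. HFD-25% mouse 2 was low in Bhlhe40, at 34.6 CPM. HFD-C mouse 4 was low in Dbp, at 28.0 CPM. HFD-U mouse 3 was high in Tef, at 429 CPM.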

How the results depend on the processing

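The sign of all 33 differences between 2 groups that reached an unadjusted p of at most 0.05 was kept in all 647 refits, and 38 of these refits passed adjustment. Of the 55 differences that had not reached it, 18 changed sign in at least 1 setting (54 of 1105 values). The number of the 8 genes past adjustment depended on the setting. For HFD-50% against HFD-U it was 0, but 4 with DESeq2, 4 without a minimum count and 3 in 1 fit over all 6 groups. It ranged from 0 to 2 when 1 mouse was left out (Bhlhe40 without HFD-U mouse 4, Bhlhe40 and Nr1d1 without HFD-U mouse 5). For HFD-75% against HFD-U it was 0, but 4 with DESeq2, 3 without a minimum count and 1 with the rRNA-linked share, and 0 to 1 with a mouse left out. For HFD-50% against HFD-C it was 0, but 2 with DESeq2, 1 without a minimum count and 1 in the fit over all 6 groups, and 0 to 1 with a mouse left out. For HFD-75% against HFD-C DESeq2 gave 1. For the distance over 24 running mice it was 2, but 4 with DESeq2, 0 with the rRNA-linked share, 1 without the mice numbered 1 and 0 with a straight line, and 0 to 3 with a mouse left out. Over 30 mice a straight line gave 0 in place of 2, and leaving out a mouse 2 to 3. Among all 6 groups a term for the library set gave 0 in place of 3, and leaving out a mouse 2 to 4. The cause of these shifts was not tested. Nr1d2 and Bhlhe41 had r = -0.0226 in the low-share libraries alone.

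The pairing of mice by number rests on the data alone in all groups, with 6 of 6 pairs above the mark in HFD-U and HFD-C. With the replicate block, 4 genes passed adjustment for HFD-50% against HFD-U (0.219% of all genes), 2 for HFD-75% against HFD-U (0.0169%), 2 for HFD-50% against HFD-C (0.413%), 3 over the 24 running mice (0.109%), 4 over the 30 mice (2.13%) and 4 among all 6 groups (4.37%). It left 0 past adjustment in the other comparisons of 2 groups. The lowest mean count of the 8 genes was 172.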
